A study of Homo sapiens with 12 samples.

Results

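HR is the human gene of hairless, a nuclear protein that acts as a corepressor of transcription and carries a JmjC domain, the fold of a family of histone lysine demethylases. It was taken as the row named HR (ENSG00000168453.16), 1 gene of the 19677 listed in each table of gene counts, and it was chosen because its level was higher with bezafibrate and lower with ascites in these libraries. Its levels and contrasts are therefore described here without a test. RNA was sequenced from CAOV3, a human cell line labelled as epithelial high-grade serous ovarian cancer with wild-type genotype, in 4 groups of 3 libraries. Control cells had the solvent DMSO. The ascites group had 10% ovarian cancer ascites with DMSO for 16 hours, the bezafibrate group had 200 uM bezafibrate for 16 hours, and the combination group had both for 16 hours. All cells grew in DMEM with fetal bovine serum. DMSO is not named in the labels of the drug-treated groups, and the labels list no time for the control libraries and do not say whether the ascites came from more than 1 person or whether replicates were separate cultures. Values of n count libraries, and the spread between them may be technical.

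Hairless binds the thyroid hormone receptors, the vitamin D receptor and the ROR orphan receptors and recruits histone deacetylases, so that their target genes stay silent. It has been assigned demethylase activity on lysine 9 of histone H3 (H3K9), a residue whose methylation marks silent chromatin, and its closest relatives are KDM3A, KDM3B and JMJD1C. Loss of its function causes congenital hair loss, because the hair follicle fails to regrow, and in the developing brain the gene is switched on by thyroid hormone. Ascites is abdominal fluid that accumulates as ovarian cancer spreads. Bezafibrate is a fibrate, a lipid-lowering drug that activates the PPAR nuclear receptors, which bind DNA together with RXR.

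Total counts ranged from 11831093 to 18762759 per library, and 12470 genes had counts enough to be tested. Combination replicate 3 stood apart on the second principal component (-22.4, against -4.37 to 9.84 in the other libraries). The keratin genes KRT7, KRT8 and KRT18 were abundant, at 762, 3005 and 1784 CPM (counts scaled to a common library total) on average in control cells. Of the markers that define the serous type, PAX8 stood at 0.378 CPM in control cells, and WT1 and MUC16 had 15 and 10 counts over all 12 libraries. Of 24 marker entries for blood cells, platelets, fibroblasts and mesothelium, 10 were tested. With ascites against control edgeR's quasi-likelihood test called 0 of them (1 at an unadjusted p under 0.05, 0 with DESeq2), where 0.0882% of all tested genes were called. It called 5 with the drug, in the contrasts both without and with ascites, where 17.6% and 17.8% of all tested genes were called. Summed blood markers ranged from 75.6 to 85.6 CPM without the drug and from 92.9 to 102.8 CPM with it, and CD68 made up most of them. The leukocyte markers PTPRC, CD3E, TYROBP, S100A8 and S100A9 and the platelet markers PPBP, PF4 and GP9 were at 0 in all 12 libraries. Summed fibroblast markers ranged from 228.8 to 243.7 CPM without the drug and from 184.0 to 199.3 CPM with it, and LUM made up most of them. With bezafibrate against control LUM fell by 0.17 on the log2 scale, COL1A1 by 0.68, COL3A1 by 0.71 and PDGFRA by 1.00. PDGFRA averaged 43.2 CPM in control and 21.6 CPM with bezafibrate (edgeR adjusted p 6.81e-14). Mesothelial markers did not exceed 2.46 CPM in any library. KRT7 rose with the drug as well, to 1118 ± 41.7 CPM with bezafibrate (SD, n = 3), by 0.55 and 0.57 on the log2 scale in the contrasts without and with ascites (edgeR adjusted p 3.34e-17 and 1.75e-17). PAX8, on 122 counts over all libraries, averaged 1.11 CPM with bezafibrate, a difference of 1.48 on the log2 scale from control (SE 0.48, edgeR adjusted p 0.0252). That call was lost with DESeq2 (0.0786) and without control replicates 2 or 3 or bezafibrate replicates 1 or 2 (0.0509 to 0.170), and in the combination against ascites PAX8 had 0.66 (SE 0.51, edgeR adjusted p 0.44). These shifts moved with the drug, as HR did, and their part in the HR values was not tested.

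HR lies on the minus strand of chromosome 8 from position 22114415 to 22133384 (GRCh38, GENCODE 29), the build that the submitters' processing notes name. The open reading frame gene HRURF, annotated by RefSeq inside the span of HR at 22130458 to 22131010, has its own row in the tables and was at 0 counts in all 12 libraries, so no read was assigned to it in place of HR. The counts are per gene, and transcript isoforms of HR were not separated.

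In control cells HR stood at 42.1, 38.6 and 40.0 CPM in replicates 1 to 3, from 617, 525 and 504 counts. With ascites alone it stood at 32.9, 31.4 and 33.5 CPM, from 462, 402 and 498 counts. With bezafibrate alone the values were 129.4, 132.4 and 136.2 CPM (2146, 2461 and 1983 counts). Every library with the drug was above every library without it. With the combination they were 129.9, 121.5 and 113.7 CPM (2215, 1431 and 1347 counts), the lowest of these in the library that stood apart. All 3 ascites libraries were below all 3 control libraries, whereas the bezafibrate and combination ranges overlapped between 129.4 and 129.9 CPM.

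**Figure D1:**
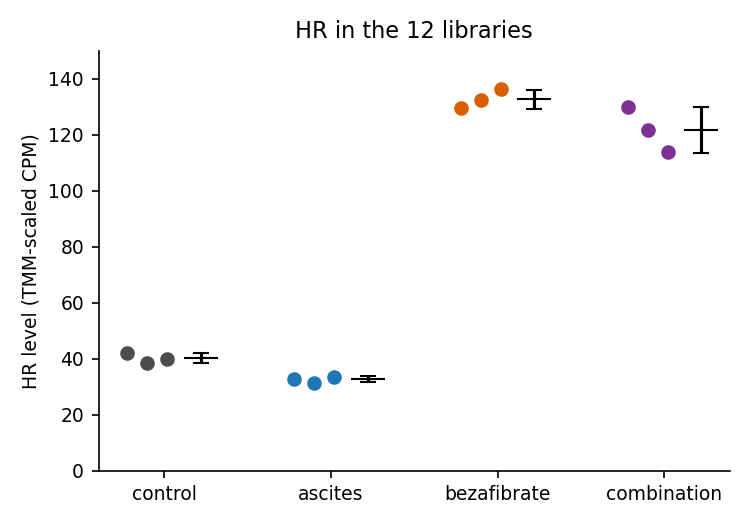
HR level in TMM-scaled CPM (vertical axis, from 0) in the control, ascites, bezafibrate and combination groups. Each point is 1 library, and the bar beside the points gives the mean and SD of 3 libraries. The 6 libraries with the drug sit between 113.7 and 136.2 CPM and the 6 without it between 31.4 and 42.1 CPM.

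The mean was 132.7 ± 3.44 CPM with bezafibrate, 121.7 ± 8.10 CPM with the combination, 40.2 ± 1.76 CPM in control cells and 32.6 ± 1.10 CPM with ascites (SD, n = 3 each), in that order. Bezafibrate and the combination are the neighbours in this order that did not separate beyond their spread. Counting error of a single library averaged 4.28% in control, 4.71% in ascites, 2.14% in bezafibrate and 2.50% in the combination. The coefficient of variation between replicates was 4.38%, 3.39% and 2.59% in the first 3 of these groups, close to counting error alone, and 6.65% in the combination. On the log2 scale, 98.1% of the variation of HR over the 12 libraries lay between the libraries with and without the drug, 1.60% between groups that were alike in drug treatment, and 0.339% within groups.

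Bezafibrate against control gave a log2 fold change for HR of 1.72 (SE 0.051), which is 3.30 times the control level. The same drug in the presence of ascites, the combination against ascites, gave 1.90 (SE 0.053), or 3.74 times the ascites level. These contrasts share no library. HR had the 48th highest log2 fold change of the 12470 tested genes in the contrast without ascites and the 42nd highest in the contrast with it. In these contrasts 10.1% and 10.5% of tested genes were called higher at an adjusted p under 0.05 (edgeR), and 17.2% and 16.0% had all treated libraries above all untreated ones. HR was chosen on these contrasts, so nothing is read from its place among those genes.

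Ascites against control gave -0.30 (SE 0.062), or 0.811 times the control level. Ascites in drug-treated cells, the combination against bezafibrate, gave -0.12 (SE 0.044), or 0.921 times the bezafibrate level. The size of the latter rested on the combination libraries. It was -0.07 without combination replicate 3 and -0.17 without combination replicate 1. For ascites against control, 11 genes (0.0882% of those tested) were called, each of them lower, and 7.06% had all ascites libraries below all control libraries. Calls in either direction numbered from 3 to 24 as each library was left out in turn. In drug-treated cells, 0.0882% were called lower and 0.0401% higher. HR ranked 349th from the lowest log2 fold change in the first contrast and 1185th in the second. The difference between the ascites changes with and without the drug was 0.18 on the log2 scale (SE 0.076), the ascites change with the drug being the smaller. In the test of that difference 0 of 12470 genes were called by edgeR (0% of those tested), 445 had an unadjusted p under 0.05 and DESeq2 called 1.

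Among the other H3K9 demethylases the changes with the drug were small. The 3 closest relatives of HR gave no call in any contrast. KDM3A, which also responds to hypoxia, stood at 53.4, 55.7 and 54.4 CPM in control and 54.3, 56.2 and 53.0 CPM with bezafibrate, overlapping ranges that differed by 0.0014 on the log2 scale (SE 0.054, edgeR adjusted p 0.992). KDM3B, at 131.1, 133.8 and 134.2 CPM in control and 128.5, 123.5 and 134.2 CPM with bezafibrate, also overlapped (-0.05, SE 0.041, edgeR adjusted p 0.49). JMJD1C stood at 111.8, 120.0 and 121.0 CPM in control and just below that range with bezafibrate, at 111.7, 102.6 and 111.0 CPM (-0.12, SE 0.046, edgeR adjusted p 0.0715). In the combination against ascites the values of the 3 genes were 0.06, 0.04 and 0.03. The difference between HR and these genes was not itself tested.

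Of the 11 H3K9 demethylases other than HR, 1 was called higher and 1 lower with bezafibrate, while 17.6% of all tested genes were called in either direction. The median log2 fold change of the 11 was 0.0014, beside -0.0037 over all tested genes. KDM1A (LSD1), a flavin-dependent demethylase of the CoREST complex, rose from 259, 257 and 255 CPM to 277, 282 and 285 CPM, by 0.13 on the log2 scale (SE 0.030, edgeR adjusted p 0.00169). Its ranges did not overlap, as in the 17.2% of all tested genes with all bezafibrate libraries above all control libraries. KDM1A rose again in the combination against ascites by 0.15 (SE 0.031, edgeR adjusted p 0.000278). PHF8, a demethylase with a reader domain for active promoters, fell by 0.16 with bezafibrate (edgeR adjusted p 0.0368). Its call was lost without control replicates 2 or 3 and without bezafibrate replicates 1 or 3, with adjusted p from 0.0956 to 0.136, and the fit without a filter and DESeq2 gave adjusted p of 0.0561 and 0.122. In the combination against ascites KDM1A was the 1 gene called, where 17.8% of all tested genes were.

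Of 17 other JmjC genes, which act on other histone lysines or on other proteins, KDM2A was called with bezafibrate, at 0.11 on the log2 scale (edgeR adjusted p 0.0214). That call was lost under upper quartile scaling (adjusted p 0.0566) and without control replicate 2, bezafibrate replicate 2 or bezafibrate replicate 3 (0.102, 0.0589 and 0.0799). With ascites present edgeR called 0 of the 17 for the drug, 3 had an unadjusted p under 0.05 and DESeq2 called 0. Over all tested genes, 17.6% were called in bezafibrate against control and 17.8% in the combination against ascites.

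**Figure D2:**
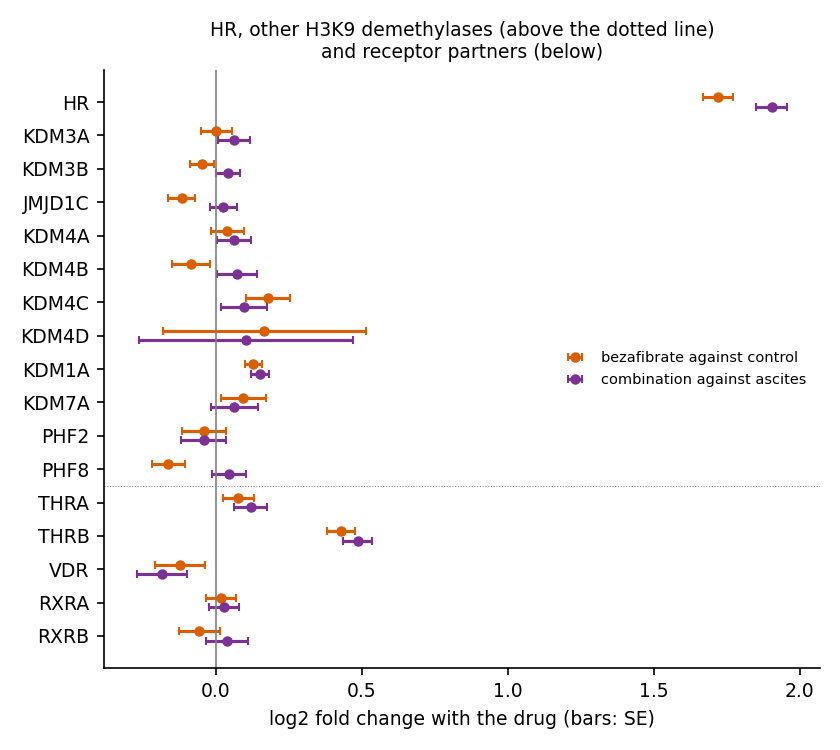
Log2 fold change with the drug (horizontal axis, bars are SE) of HR, the 11 other H3K9 demethylases and the 5 tested receptor partners, in bezafibrate against control and in the combination against ascites. HR lies at 1.72 and 1.90, THRB at 0.43 and 0.49, and KDM4D, at under 1 CPM in control cells, has the widest bars.

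The enzymes that write the mark which HR is reported to remove, their partners and the proteins that read the mark changed little. The methyltransferases EHMT1, EHMT2, SUV39H1, SUV39H2, SETDB1 and SETDB2 were not called in either drug contrast. The genes called were partners or readers, and they fell. Of 13 such genes 2 were called lower with bezafibrate and 4 in the combination against ascites, where 7.55% and 7.29% of tested genes were called lower. The medians were -0.07 in both contrasts, beside -0.0037 over all tested genes in each. ATF7IP, the partner of the methyltransferase SETDB1, fell from 83.4, 89.3 and 85.1 CPM to 76.3, 72.9 and 71.7 CPM with bezafibrate, by 0.22 (SE 0.044, edgeR adjusted p 0.000208). It fell by 0.26 in the combination against ascites (SE 0.045, edgeR adjusted p 3.37e-05). CBX5, which encodes heterochromatin protein HP1 alpha, fell by 0.18 and 0.14 (edgeR adjusted p 6.1e-05 and 0.00145). CBX3 (HP1 gamma) and WIZ, a partner of the methyltransferases EHMT1 and EHMT2, were called in the combination against ascites, at -0.09 and -0.13 (edgeR adjusted p 0.0215 and 0.0497), and had -0.07 each in bezafibrate against control (0.0613 and 0.317). CBX3 lost its call without ascites replicates 1 or 3 or combination replicate 1 and in the fit of the compared groups alone, with adjusted p from 0.0567 to 0.0938. WIZ lost its call in 10 of 18 alternatives. They included the fits without control replicate 3, without any 1 ascites or bezafibrate replicate and without combination replicate 3, where the adjusted p was 0.348.

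Among the receptors that hairless binds, THRB was the gene that moved with the drug. THRB encodes thyroid hormone receptor beta. It stood at 50.6, 53.0 and 52.9 CPM in control, 50.7, 48.2 and 52.9 CPM with ascites, 71.3, 69.9 and 69.2 CPM with bezafibrate and 72.7, 69.7 and 69.9 CPM with the combination. All libraries with the drug were above all libraries without it. Over all tested genes, 17.2% had all bezafibrate libraries above all control libraries, and 16.0% had all combination libraries above all ascites libraries. The log2 fold change of THRB was 0.43 (SE 0.048, edgeR adjusted p 5.67e-09) for bezafibrate against control and 0.49 (SE 0.049, edgeR adjusted p 5.37e-10) for the combination against ascites. THRA, which encodes thyroid hormone receptor alpha, was not called in any contrast. Its ascites libraries (44.2, 39.7 and 43.8 CPM) lay below its control libraries (50.3, 48.6 and 48.7 CPM), as in 7.06% of all tested genes. The difference was -0.21 on the log2 scale (SE 0.056, edgeR adjusted p 0.341). VDR, RXRA and RXRB were tested and not called, and VDR had -0.12 with bezafibrate (SE 0.085, edgeR adjusted p 0.377). RORB and RXRG had 0 counts in all 12 libraries, which allows a level of up to 0.0173 CPM over the libraries, for counting error only. RORA had 89 counts in all and was not tested.

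Hairless works with deacetylase complexes, and 17 of 18 genes of corepressors and histone deacetylases were tested. With bezafibrate 2 were called higher and 2 lower, and with the drug in ascites again 2 and 2, beside backgrounds of 10.1% and 10.5% called higher and 7.55% and 7.29% called lower. NCOR1, a scaffold that binds unliganded nuclear receptors, rose from 304, 313 and 317 CPM to 371, 374 and 375 CPM, by 0.26 on the log2 scale (SE 0.033, edgeR adjusted p 8.15e-08). It rose by 0.29 in the combination against ascites (SE 0.034, edgeR adjusted p 1.25e-08). HDAC5, a class II deacetylase, fell in both, by 0.28 and 0.37 (edgeR adjusted p 0.0261 and 0.00291). Its first call was lost with DESeq2 (0.101) and without control replicates 1 or 3 or bezafibrate replicates 2 or 3 (0.0513 to 0.142). SIN3B rose by 0.17 and LCOR, a ligand-dependent corepressor, fell by 0.16 in bezafibrate against control (edgeR adjusted p 0.00672 and 0.00225). SIN3B had an adjusted p of 0.0668 without control replicate 1. CTBP1 had -0.12 in the combination against ascites (edgeR adjusted p 0.0394), and that call was lost in 7 of 18 alternatives, with adjusted p of up to 0.143 without ascites replicate 2. The other fits that lost it were those with DESeq2, of the compared groups alone, and without ascites replicate 1, bezafibrate replicate 2, combination replicate 2 or combination replicate 3.

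The genes that hairless or its receptors are known to control in other tissues were read next. WIF1, SOSTDC1 and DKKL1, which are repressed by hairless in mouse skin, had 0, 73 and 5 counts over all libraries and were not tested. SOSTDC1, an inhibitor of Wnt and BMP signalling, stood at 0.341 to 0.793 CPM in the libraries without the drug and 0.235 to 0.362 CPM in those with it, ranges that overlap. In the fit without a filter its log2 fold change with bezafibrate was -0.91 (SE 0.58, edgeR adjusted p 0.375). Of 12 vitamin D receptor targets 6 were tested, of which 2 were called lower with bezafibrate and 1 in the combination against ascites, beside 7.55% and 7.29% of all tested genes. SERPINB1 fell by 0.22 in both (edgeR adjusted p 0.00132 and 0.0014). IGFBP3, which encodes a carrier of insulin-like growth factors, fell from 3.46 ± 0.62 to 1.45 ± 0.28 CPM with bezafibrate (SD, n = 3), by 1.27 (SE 0.25, edgeR adjusted p 0.000153). In the combination against ascites IGFBP3 had -0.50 and was not called (SE 0.26, edgeR adjusted p 0.199). The 6 tested targets ranged from -1.27 to 0.61 with bezafibrate, with a median of 0.015, beside -0.0037 over all tested genes. Their median was -0.17 in the combination against ascites.

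Of 8 thyroid hormone receptor targets 5 were tested and 1 was called higher in each drug contrast, beside 10.1% and 10.5% of all tested genes. It was PCK1, the entry enzyme of gluconeogenesis and also a target of PPARs, at 1.66 with bezafibrate (SE 0.13, edgeR adjusted p 9.18e-13) and 2.08 in the combination against ascites (SE 0.14, edgeR adjusted p 1.63e-14). KLF9, ME1, BCL3 and FURIN were not called in any contrast. Of 13 clock genes read by ROR and REV-ERB or acting in the same loop, 11 were tested, with 2 called higher and 2 lower by bezafibrate and 3 and 1 in the combination against ascites. The shares over all tested genes were 10.1% higher and 7.55% lower in the first contrast and 10.5% and 7.29% in the second. NR1D1, which encodes REV-ERB alpha, had 0.32 and 0.47 in the 2 contrasts (edgeR adjusted p 0.0114 and 0.000388), and the first was lost without control replicate 2 (0.0897) or 3 (0.1). NPAS2, a partner of BMAL1, had 0.29 and 0.22 (edgeR adjusted p 0.000187 and 0.00539), and the latter was lost without ascites replicate 3 (0.112) or combination replicate 2 (0.0602). PER2, a repressor of the clock, fell by 0.29 and 0.32 (edgeR adjusted p 0.00516 and 0.00264), and the first was lost without bezafibrate replicate 1 (0.0525). PER1 had -0.26 with bezafibrate (edgeR adjusted p 0.0482), a call lost in 12 of 18 alternatives, with adjusted p of up to 0.179 without control replicate 3. They included the fit without each 1 of the control, ascites and bezafibrate replicates and of combination replicate 2, the replicate block (0.0562) and DESeq2 (0.144). CRY1 had 0.17 in the combination against ascites (edgeR adjusted p 0.014), lost with DESeq2 (0.0501) and without ascites replicates 1 or 2 or combination replicate 3 (0.0513 to 0.0566).

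Of 19 hair follicle genes, 12 had too few counts to be tested, among them FOXN1, EDAR and LEF1. Of the 7 tested, edgeR called 0 in both drug contrasts, 1 had an unadjusted p under 0.05 with bezafibrate and 2 in the combination against ascites, and DESeq2 called 0. Over all tested genes 17.6% and 17.8% were called, so 0 of 7 is not read as a lack of response.

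PPAR targets, the genes through which fibrates raise fatty acid oxidation, were read next. Of the 20 listed, 15 were tested and all 15 were called higher in both drug contrasts, with median log2 fold changes of 1.93 and 1.94. Over all tested genes 10.1% and 10.5% were called higher, and the median was -0.0037 in each contrast. The tested targets ranged from 0.45 for ACADVL to 4.07 for PDK4. HR had 1.72 and 1.90, but it was chosen on these contrasts, so nothing is read from its place beside these genes. PDK4, an inhibitor of pyruvate oxidation, went from 8.26 ± 0.35 to 138.8 ± 1.89 CPM with bezafibrate (SD, n = 3). PLIN2, a coat protein of lipid droplets, had 2.73 and 2.72, and FABP4, a fatty acid carrier, had 3.69 and 3.78. ANGPTL4, a secreted inhibitor of lipoprotein lipase, had 3.60 and 3.65. The genes that had passed the filter could have done so through the drug-treated libraries, so the count of 15 is a description.

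With ascites against control, 0 of the 107 tested genes in the lists above were called by edgeR, where 0.0882% of all tested genes were called. Beside so small a share, nothing is read from that 0. Of the 107, 7 had an unadjusted p under 0.05 and DESeq2 called 0. In the combination against bezafibrate 1 of the 107 was called, FABP4 at 0.15 (edgeR adjusted p 0.0152), where 0.128% of all tested genes were called in either direction. Its call was lost in the fit of the compared groups alone (0.306) and without bezafibrate replicate 2 (0.117), bezafibrate replicate 3 (0.255) or combination replicate 3 (0.0501).

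The genes beside HR on chromosome 8 were read to see how far the change extended along the chromosome. Of the 5 listed genes on each side, 7 were tested, and DMTN was the 1 called with the drug in each contrast, beside 17.6% and 17.8% of all tested genes. NUDT18 encodes a nucleotide hydrolase, and its start site lies 5.00 kb from the nearer edge of HR. It stood at 3.14, 3.23 and 3.01 CPM in control and 4.70, 3.12 and 2.82 CPM with bezafibrate, overlapping ranges (log2 fold change 0.18, SE 0.20, edgeR adjusted p 0.621). With ascites present the ranges of NUDT18 did not overlap, at 1.85, 2.19 and 2.76 CPM with ascites and 3.05, 3.82 and 3.29 CPM with the combination (0.56, SE 0.22, edgeR adjusted p 0.0784), as in 16.0% of all tested genes. REEP4, a membrane-shaping protein of the endoplasmic reticulum whose gene lies 4.64 kb away on the other side, had 0.05 (SE 0.059, edgeR adjusted p 0.613). FHIP2B and BMP1 had 0.08 and 0.10 and were not called. DMTN, which encodes the actin-bundling protein dematin and lies 31.9 kb from HR, went from 45.8, 42.1 and 46.4 CPM to 58.0, 58.3 and 59.9 CPM. Its log2 fold change was 0.39 (SE 0.054, edgeR adjusted p 4.76e-07), and 0.43 in the combination against ascites (SE 0.055, edgeR adjusted p 1.22e-07). With ascites against control edgeR called 0 of the 7 neighbours, where 0.0882% of all tested genes were called, so nothing is read from that 0. Of the 7, 1 had an unadjusted p under 0.05 (NUDT18, at -0.46, SE 0.22) and DESeq2 called 0.

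**Figure D3:**
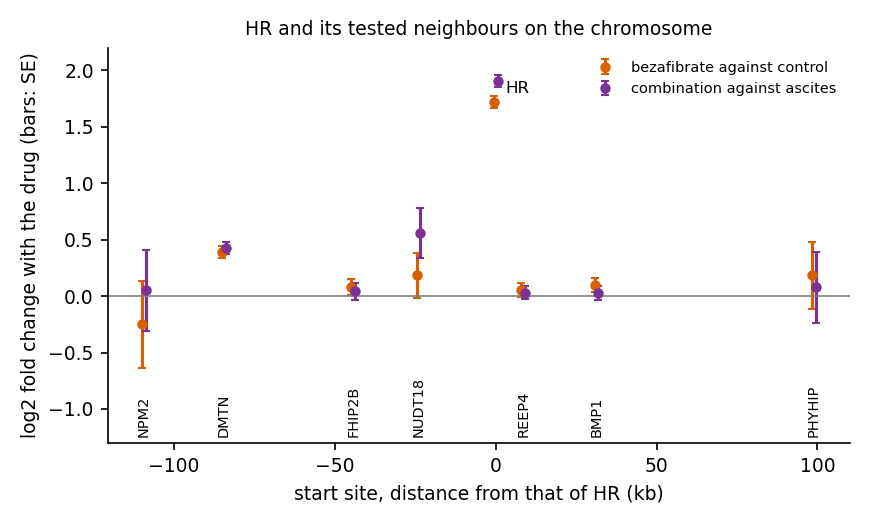
Log2 fold change with the drug (vertical axis, bars are SE) of HR and its 7 tested neighbours, against the distance of each start site from that of HR in kb (horizontal axis), for bezafibrate against control and the combination against ascites. HR stands at 1.72 and 1.90, DMTN at 0.39 and 0.43, and the 2 nearest tested genes, NUDT18 and REEP4, were not called.

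The 10 genes whose pattern was most like that of HR were ranked by the root mean square difference in log2 CPM, each gene centred on its own mean, over the 12 libraries. The ranking covered 11925 other genes whose mean reached 1 CPM. Its values are a description, since the measure uses all 12 libraries, and with them the drug and ascites contrasts on which HR was chosen. CREB3L3 was nearest at 0.10 log2 units, followed by IHH (0.13), CDH1 (0.15), FABP3 (0.16), AQP3 (0.17), KLF11 (0.17), FA2H (0.17), C11orf86 (0.18), SLC38A4 (0.19) and PCK1 (0.19). The next gene was at 0.21 and the median gene at 0.92. Their changes ranged from 1.52 to 2.05 for bezafibrate against control and from 1.59 to 2.08 for the combination against ascites.

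CREB3L3 encodes a membrane-bound transcription factor of liver and gut that is a known PPAR alpha target. It stood at 42.7, 39.2 and 40.5 CPM in control, 37.9, 37.3 and 38.0 CPM with ascites, 153, 151 and 161 CPM with bezafibrate and 147, 140.1 and 146 CPM with the combination. Its ascites libraries lay below its control libraries, as in 7.06% of all tested genes, with a difference of -0.11 on the log2 scale (SE 0.055). IHH, a hedgehog ligand, stood at 7.57, 6.76 and 6.66 CPM in control, 6.91, 5.78 and 5.45 CPM with ascites, 20.9, 21.5 and 22.4 CPM with bezafibrate and 21.4, 21.7 and 16.6 CPM with the combination. CDH1, the epithelial adhesion protein E-cadherin, stood at 18.6 ± 0.378 CPM in control and 15.9 ± 0.553 CPM with ascites (SD, n = 3), a difference of -0.23 on the log2 scale (SE 0.087). Its means with bezafibrate and the combination were 53.3 ± 3.17 and 51.7 ± 4.82 CPM (SD, n = 3).

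**Figure D4:**
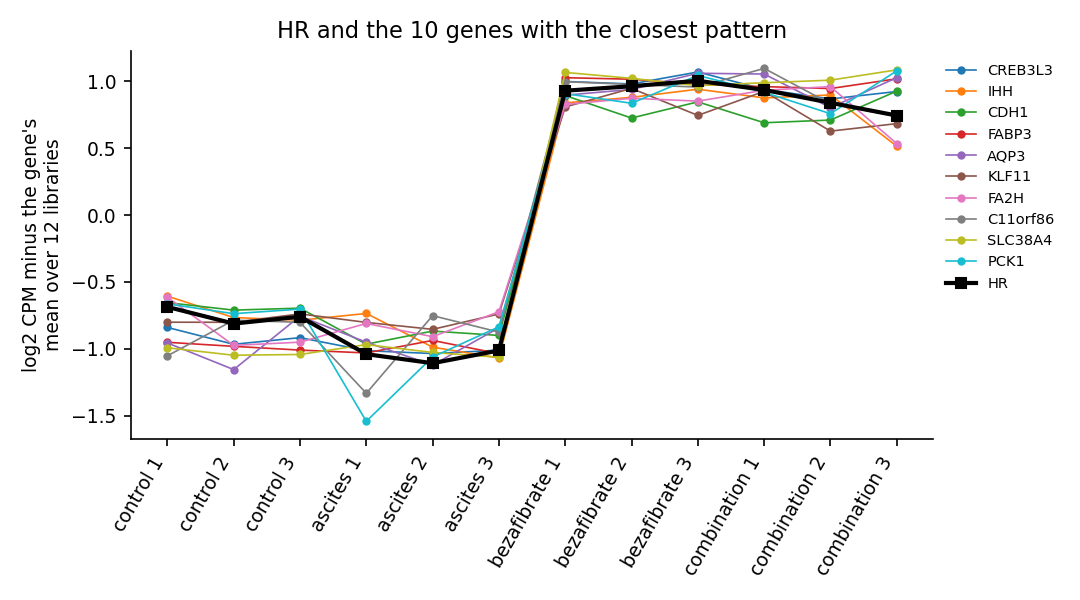
Log2 CPM of HR (black squares) and of the 10 genes with the closest pattern (coloured points), each minus the gene's own mean over the 12 libraries named on the horizontal axis. Lines join the values of 1 gene and mark no order among libraries. All 11 genes step up between the libraries without and with the drug, and PCK1 in ascites replicate 1 lies farthest below HR.

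The ascites values of these 10 genes ranged from -0.43 for PCK1 to 0.02 for FA2H. In drug-treated cells they ranged from -0.11 for IHH to 0.0080 for AQP3. Closeness to HR in the ascites libraries was part of their choice, so nothing is read from these directions. The ascites value of HR itself, -0.30, was exceeded in size among them by that of PCK1, which stood at group means of 4.45 CPM in control and 3.30 CPM with ascites. CREB3L3 and FABP3 also stand on the PPAR list.

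The promoter of CREB3L3 is printed because it belongs to the gene nearest to HR in pattern. The promoters were searched for the element that PPAR and RXR bind, a direct repeat of half-sites spaced by any 1 base (DR1). Both strands were searched for the full form, with the half-site AGGTCA repeated, and for a relaxed form with AGGNCA repeated, which includes every match to the full form. The window runs from 250 bases before to 50 bases after the start site (RefSeq, GRCh38.p14, plus strand, chr19:4153381-4153680), and capitals mark the match to the relaxed form, which begins 222 bases before the start site.
CREB3L3: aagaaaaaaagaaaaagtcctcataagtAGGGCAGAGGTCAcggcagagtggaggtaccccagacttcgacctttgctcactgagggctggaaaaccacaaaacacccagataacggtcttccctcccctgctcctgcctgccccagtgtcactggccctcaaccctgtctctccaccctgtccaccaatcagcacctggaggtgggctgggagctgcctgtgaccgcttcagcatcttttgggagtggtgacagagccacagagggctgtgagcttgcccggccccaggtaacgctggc

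Of the 10 genes, 7 had a promoter in the table, and CREB3L3 was the 1 with a match to the relaxed form. HR, CDH1, C11orf86 and PCK1 were not searched. None of the 7 held the full form (0 of 7). Of the 18 genes of the PPAR list outside these 10, 13 had a promoter and 0 held either form. Over 35116 promoters of the same length, 0.310% held the relaxed form and 0.0228% the full form. A match is a run of letters and not evidence of binding, and this window leaves out most of the sequence around each gene.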

How the data were processed

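For each library the authors deposited raw counts per gene as whole numbers, in a table without a header. The submitters' processing notes name Trimmomatic 0.39, STAR 2.7.9a, RSEM 1.3.3, DESeq2 1.28.1 and the build GRCh38, without roles. Whether the whole numbers are counted reads or rounded estimates, and whether strand was used, is not given in the sources used here. HR, the lists and the rules were chosen with earlier results of these data known.

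Genes were kept by filterByExpr (minimum count 10, minimum total 15) in edgeR 4.0.16 (R 4.3.3), which left 12470 of 19677. Counts were scaled by TMM, and 1 mean per group was fitted over the 12 libraries (8 residual degrees of freedom) with glmQLFit (robust) and glmQLFTest. Calls required an adjusted p (Benjamini-Hochberg, all tested genes) under 0.05. Each SE was taken from the log2 fold change and its F statistic. Total counts were 11831093 to 18762759, which puts counting error on HR between 2.02% and 4.99% per library. No 2 replicates of a group were duplicates (chi-square per degree of freedom 1.44 to 4.45). The limit for a gene at 0 is 3 counts over all libraries. The procedure was tested on simulated data. Named genes were HR, its 5 listed neighbours on each side, the 10 nearest in pattern, and up to 4 called genes per list and contrast. Log2 CPM used a prior count of 2. Alternatives were 2 other scalings, no filter, DESeq2 1.42.0, the compared groups alone, a replicate block, summing HRURF and leaving out each library. Some members counted in the lists are not reported here by name.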

Additional observations from a re-analysis of the deposited data

How the results depend on the processing

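HR kept its direction in every contrast and alternative run, and its log2 fold change moved by less than the pooled SD between replicates (0.065). Leaving out 1 library gave 1.69 to 1.76 for bezafibrate against control, 1.85 to 1.95 for the combination against ascites, -0.33 to -0.26 for ascites against control, -0.17 to -0.07 for the combination against bezafibrate, and 0.13 to 0.23 for the interaction. Counts of called genes ranged over those fits from 3 to 24 for ascites against control (3 to 5 without any 1 control or ascites library, 7 without bezafibrate replicate 2, 17 without combination replicate 1, 24 without combination replicate 3), from 9 to 28 (10 without bezafibrate replicate 1, 9 without bezafibrate replicate 2, 28 without combination replicate 3) for the combination against bezafibrate, from 0 to 3 (without combination replicate 1) for the interaction, from 1761 to 2556 for bezafibrate against control and from 1742 to 2188 for the combination against ascites. Without a filter, 59, 52 and 36 genes were called for ascites against control, the combination against bezafibrate and the interaction, and with the compared groups alone 33 and 7 for the first 2. DESeq2 called 1 gene for the interaction. The cause of these shifts was not tested. Under upper quartile scaling 49.0% of the genes called with bezafibrate were higher, against 57.2% under TMM, and 49.3% against 58.9% in the combination against ascites.

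With the replicate number as a block, HR had -0.30, 1.72, 1.90, -0.12 and 0.18 in the 5 contrasts, and 8, 2145, 2154, 14 and 1 genes were called. Deviations of same-numbered libraries correlated between -0.14 and 0.06 (18 pairs), and those of differently numbered libraries between -0.07 and 0.18 (36 pairs). Over all genes no pairing by number was seen, but these values cannot tell how the replicates were made. Of 44 named calls, 30 held in every alternative, 14 were lost in at least 1, and 0 reversed. Ranking by Pearson's r in place of the root mean square difference kept 1 of the 10 pattern neighbours, CREB3L3, since r disregards the size of the change. Summing HRURF with HR changed nothing, as HRURF was at 0.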
